A study of Mus musculus with 4 samples.

Results

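The genes described here are 6 long noncoding RNAs, Malat1, Neat1, Meg3, Rian, Miat and Snhg11, of 18193 genes named on the array, measured in Purkinje cells cut by laser from the cerebellum of intact C57BL/6J males aged 8 weeks. They were chosen by symbol as RNAs of the nucleus and the brain, with values of these samples known: Malat1 was selected on its difference between the animals, on which its probe sets disagreed. All 28 probe sets that carry exactly 1 of these symbols are given, 7 for Malat1, 11 for Meg3, 4 for Rian and 2 each for Neat1, Miat and Snhg11. A probe set is a group of short oligonucleotides that report on 1 stretch of transcript, and the letters a, s and x in its name mark oligonucleotides that can bind several transcripts. The 4 samples form 1 group, 2 from each of 2 animals, and are called 1-1, 1-2, 2-1 and 2-2 by animal and sample. The sources used here do not say whether samples of an animal were separate captures, nor how many cells each holds, so p-values and SEs measure only the spread between these samples, which may be technical. Both animals carry the same labels, so a difference between them describes these samples and no treatment.

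As background, these transcripts make no protein. Malat1 lies in nuclear speckles, the bodies that store splicing factors, and its end is cut by RNase P instead of being polyadenylated in the usual way. Neat1, transcribed from a neighbouring gene, is the scaffold of paraspeckles. Meg3 and Rian come from the imprinted Dlk1-Dio3 domain, where they are transcribed from the maternal chromosome, and Rian hosts small nucleolar RNAs. Miat, also known as Gomafu, forms its own nuclear spots in neurons, and Snhg11 is a small nucleolar RNA host gene found mainly in brain.

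The start regions of Malat1 and Meg3 are shown because these genes had the most probe sets with both samples of animal 2 above both of animal 1, 5 of 7 and 9 of 11 (for Miat it was 2 of 2, both below background). The sequences are from RefSeq (GRCm38.p6), run 5′ to 3′ on the gene's strand from 250 bases before to 50 bases after the start, and capitals mark TGACG on either strand, the core of the site for cyclic AMP response element binding proteins. Overlapping matches were both counted.
Malat1, chr19:5802623-5802922, minus strand: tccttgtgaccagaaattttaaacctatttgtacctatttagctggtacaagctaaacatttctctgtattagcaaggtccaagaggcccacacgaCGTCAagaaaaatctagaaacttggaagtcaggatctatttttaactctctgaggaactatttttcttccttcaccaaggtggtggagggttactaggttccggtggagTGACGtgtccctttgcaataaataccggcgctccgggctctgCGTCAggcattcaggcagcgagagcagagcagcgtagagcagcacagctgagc
Meg3, chr12:109540746-109541045, plus strand: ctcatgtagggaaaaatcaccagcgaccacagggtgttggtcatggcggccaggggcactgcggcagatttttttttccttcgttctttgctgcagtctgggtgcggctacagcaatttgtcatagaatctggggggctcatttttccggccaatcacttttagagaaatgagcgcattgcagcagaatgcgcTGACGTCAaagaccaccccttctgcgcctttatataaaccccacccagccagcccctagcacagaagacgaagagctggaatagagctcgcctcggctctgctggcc
The Malat1 window held 3 matches, whose first bases lay 154, 45 and 3 bases before the start. The Meg3 window held 2 overlapping matches, 57 and 54 bases before the start, which together spell the full palindrome TGACGTCA. Of 32851 promoter windows of the same length, 20.81% held TGACG and 1.79% held TGACGTCA on either strand. Among the genes described here, 5 were matched in the RefSeq table with 6 windows, and the windows of Rian, Miat and Snhg11 and a later Meg3 start held 0 matches. These matches describe letters only, and no value of the arrays bears on binding there.

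The samples carried the markers of their label. Of 13 Purkinje cell markers, 11 were matched on the array, and the brightest probe set of all 11 exceeded a bound for background on each of the 4 arrays. That bound is the 95th percentile, on each array, of 75 genes of organs other than brain, and it lay between 54.5 and 69.8 on the linear scale of the normalized signal (5.77 to 6.13 on the log2 scale). Median deposited signals rose from 8.40 and 8.50 in animal 1 to 9.60 in sample 2-1 and 11.4 in sample 2-2, and the arrays were therefore quantile-normalized. Values below are normalized log2 signals unless said otherwise. With 4 arrays the precision is limited. Probe sets bind with unlike strength, so levels are compared between samples and not between genes. In captures like these, fewer cells of a type and less RNA per cell cannot be told apart.

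Of the 28 probe sets, 13 passed the bound in all 4 samples, 7 passed it in 1 to 3 and 8 never did. Over the whole array 16.5% of 45037 probe sets lay above it on all 4. The 13 were 5 probe sets of Malat1, 7 of Meg3 and 1 of Snhg11. Neat1 and Miat did not pass the bound on any array with either of their probe sets, and no probe set of Rian passed it on all 4.

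**Figure D1:**
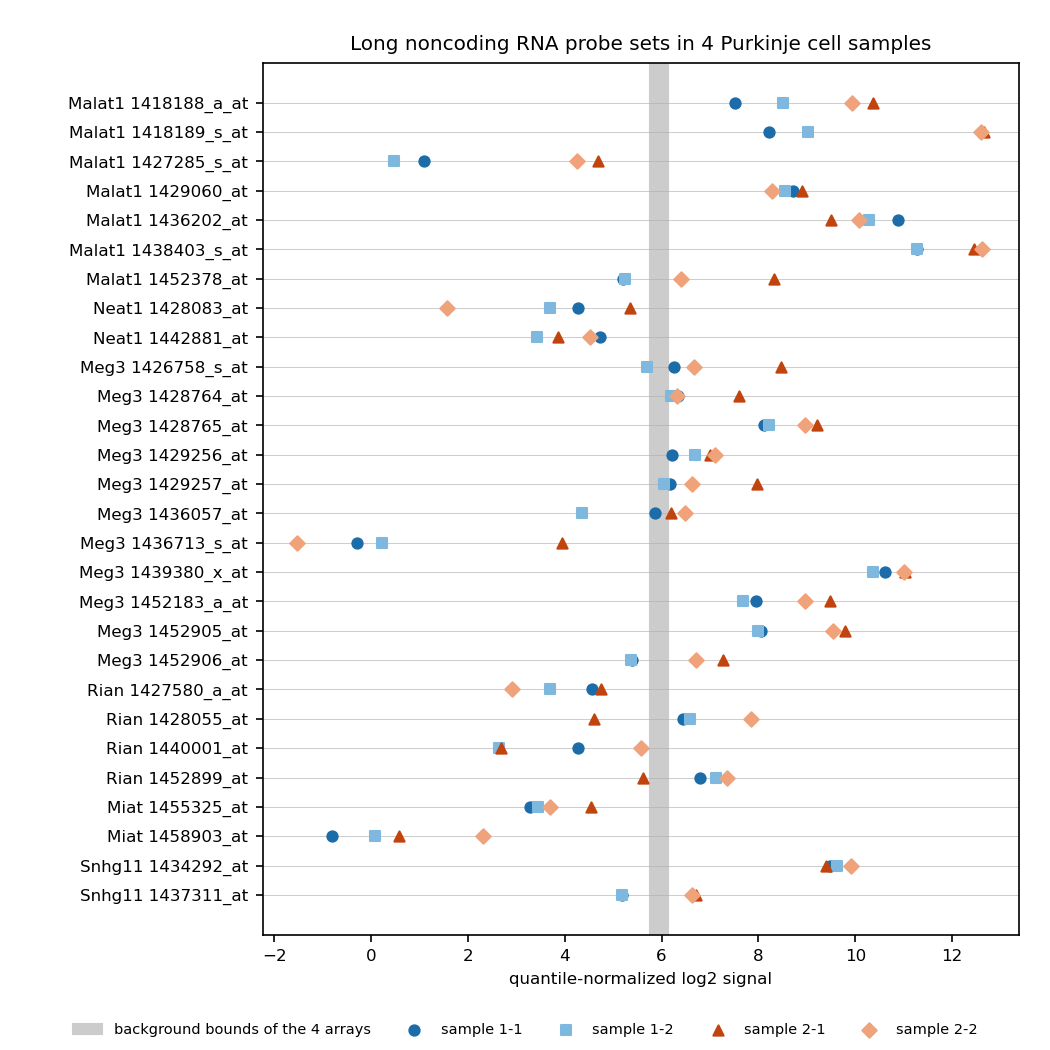
Normalized log2 signal (horizontal axis) of each of the 28 probe sets (rows) in the 4 samples, with 1 point per sample and a grey band over the background bounds of the 4 arrays. Samples of animal 2 (triangles and diamonds) lie to the right of those of animal 1 for 5 of 7 Malat1 and 9 of 11 Meg3 probe sets, while all Neat1 and Miat points lie left of the band.

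Malat1, the speckle RNA, was read very differently by its 7 probe sets. On 1418189_s_at the samples stood at 8.23 and 9.02 in animal 1 and at 12.66 and 12.60 in animal 2. The deposited signals behind these values were 247, 436, 6956 and 7670, a ratio of 21.4 between the means of the animals. Both samples of animal 2 were far above both of animal 1, by 4.01 ± 0.25 (SE, limma, n = 2 samples per animal), and the samples within an animal differed by at most 0.79.

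On 1438403_s_at the values were 11.28 and 11.28 in animal 1 and 12.44 and 12.61 in animal 2, a difference of 1.25 ± 0.09 (SE), which was 0.78 with equal hybridization controls. Here too the animals were apart, and the samples of each animal lay close together. On 1418188_a_at the samples stood at 7.51, 8.50, 10.36 and 9.94, in the order 1-1, 1-2, 2-1, 2-2. Both samples of animal 2 were again higher, by 2.15 ± 0.36, with a wider gap inside animal 1.

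The probe set 1418188_a_at was designed on the same source sequence as 1418189_s_at, and still read a difference smaller by 1.86 on the log2 scale. A second pair with a shared source, 1452378_at and 1427285_s_at, was dimmer. On 1452378_at the samples were at 5.21, 5.24, 8.32 and 6.40, so that only those of animal 2 passed the bound, and the difference of 2.14 ± 0.69 held a gap of 1.92 between the samples of animal 2 and was 1.16 without sample 2-1. On 1427285_s_at, below the bound on every array, they were at 1.10, 0.47, 4.69 and 4.25, with both of animal 2 higher.

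The remaining Malat1 probe sets read no rise in animal 2 after normalization. On 1436202_at the samples stood at 10.89 and 10.29 in animal 1 and 9.50 and 10.07 in animal 2, a difference of -0.80 ± 0.27 (SE). Here both samples of animal 1 were the higher ones after normalization, well above the bound on every array. The deposited signals of 1599, 1080, 772 and 1371 overlapped between the animals, with a difference of -0.35 on the log2 scale. The difference was -1.24 with equal hybridization controls, -0.50 without sample 1-1 and -0.51 without sample 2-1. On 1429060_at the values were 8.71, 8.55, 8.90 and 8.28, the samples of both animals overlapped, and the difference was -0.04 ± 0.30. It turned to 0.48 on values as deposited, where both samples of animal 2 were higher (514 and 413 against 346 and 316). It was 0.03 without sample 1-1 and 0.26 without sample 2-2. Malat1 thus held differences from -0.80 to 4.01 on 6 probe sets bright enough for the fit, a spread of 4.81. Among 602 genes with at least 3 such probe sets the median spread was 0.87, and Malat1 had rank 3 from the widest. Such a spread tends to widen with the number of probe sets, and the genes were not matched for number or brightness. Because this disagreement was known when Malat1 was selected, its rank is a description.

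Meg3, the maternally transcribed RNA at the start of the imprinted cluster, was read by 11 probe sets, and its mean was higher in animal 2 on all 11. The differences ran from 0.54 to 1.64 with a median of 1.22. This sign held on all 11 probe sets under each of the other scalings tried, with ranges of 0.98 to 2.17 on values as deposited, 0.48 to 1.67 with equal trimmed means, 0.42 to 1.58 with an offset and 0.09 to 1.28 with equal hybridization controls. The probe sets are not independent readings, since 10 of them were designed on 6 source sequences, and for 1 no source is listed.

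On 1452905_at the Meg3 samples stood at 8.05 and 7.98 in animal 1 and 9.78 and 9.54 in animal 2, with deposited signals of 217, 211, 954 and 969. The animals were clearly apart (1.64 ± 0.24, SE). On 1452183_a_at they stood at 7.94, 7.69, 9.48 and 8.96, and on 1428765_at at 8.11, 8.21, 9.22 and 8.95. The order of the animals was the same on both, with differences of 1.40 ± 0.29 and 0.92 ± 0.25. On 1439380_x_at the samples were at 10.61, 10.36, 11.03 and 11.01, a smaller difference of 0.54 ± 0.14 with no overlap, which was 0.98 on values as deposited and 0.09 with equal hybridization controls.

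Dimmer Meg3 probe sets with values near the bound (1426758_s_at, 1429256_at, 1429257_at, 1436057_at and 1452906_at) also had both samples of animal 2 on top, with differences from 0.60 ± 0.40 to 1.61 ± 0.50. Single samples weighed on these: 1436057_at went from 1.22 to 0.47 without sample 1-2 and to 2.02 without 1-1, and 1429256_at from 0.60 to 0.36 without 1-1. Without sample 2-1, 1426758_s_at went from 1.59 to 0.69 and 1429257_at from 1.20 to 0.52. On 1428764_at the samples of animal 1 were at 6.35 and 6.21, and only sample 2-1 stood out at 7.60, since 2-2 was at 6.33, and without sample 2-1 the difference of 0.69 was 0.05. The same sample was the high one on 1436713_s_at, which lay below the bound on every array at -0.30, 0.22, 3.95 and -1.53. Without sample 2-1 its difference was -1.53, the only Meg3 value that changed sign when a sample was left out. Sample 2-1 was above 2-2 on 9 of the 11 Meg3 probe sets.

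Rian, the snoRNA host next to Meg3 in the same imprinted domain, did not share this order. On 1428055_at it stood at 6.44 and 6.58 in animal 1, at 4.61 in sample 2-1 and at 7.84 in sample 2-2. On 1452899_at the values were 6.80, 7.11, 5.62 and 7.35. On both probe sets sample 2-1 was the lowest and 2-2 the highest, so the samples of animal 2 enclosed those of animal 1. The differences between the animals, -0.29 ± 0.99 and -0.47 ± 0.62 (SE), were smaller than these gaps and turned to 0.22 and 0.09 on values as deposited and to 1.33 and 0.39 without sample 2-1. The other probe sets, 1440001_at at 4.28, 2.64, 2.69 and 5.57 and 1427580_a_at at 4.56, 3.69, 4.74 and 2.91, were below the bound and overlapped between animals. Sample 2-1, where Meg3 was mostly highest, was the sample where the 2 brighter Rian probe sets were lowest.

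Snhg11 differed little between the animals on 1 of its probe sets. On 1434292_at the samples stood at 9.48, 9.63, 9.40 and 9.91, and those of animal 2 enclosed those of animal 1. The difference was 0.10 ± 0.23 (SE). It was 0.57 on values as deposited, where both samples of animal 2 were higher (724 and 1236 against 598 and 678), 0.35 without sample 2-1, and turned to -0.32 with equal hybridization controls and -0.16 without sample 2-2. On 1437311_at the values were 5.18 and 5.19 in animal 1, below the bound, and 6.72 and 6.62 in animal 2, above it, a difference of 1.48 ± 0.54. Since 1437311_at passed the bound only in animal 2, it had to differ to be tested. Its difference was 1.17 with an offset of 16, and nothing is read from its contrast with 1434292_at.

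Neat1, the paraspeckle scaffold, stood at 4.27, 3.69, 5.36 and 1.58 on 1428083_at and at 4.73, 3.42, 3.87 and 4.53 on 1442881_at. All of these lie below the bound, and the animals overlapped on both. Miat stood at 3.28, 3.45, 4.54 and 3.69 on 1455325_at and at -0.81, 0.09, 0.57 and 2.31 on 1458903_at, also below the bound, with both samples of animal 2 on top. For these 2 genes a level was not measurable over background, which does not show that the RNA is absent.

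**Figure D2:**
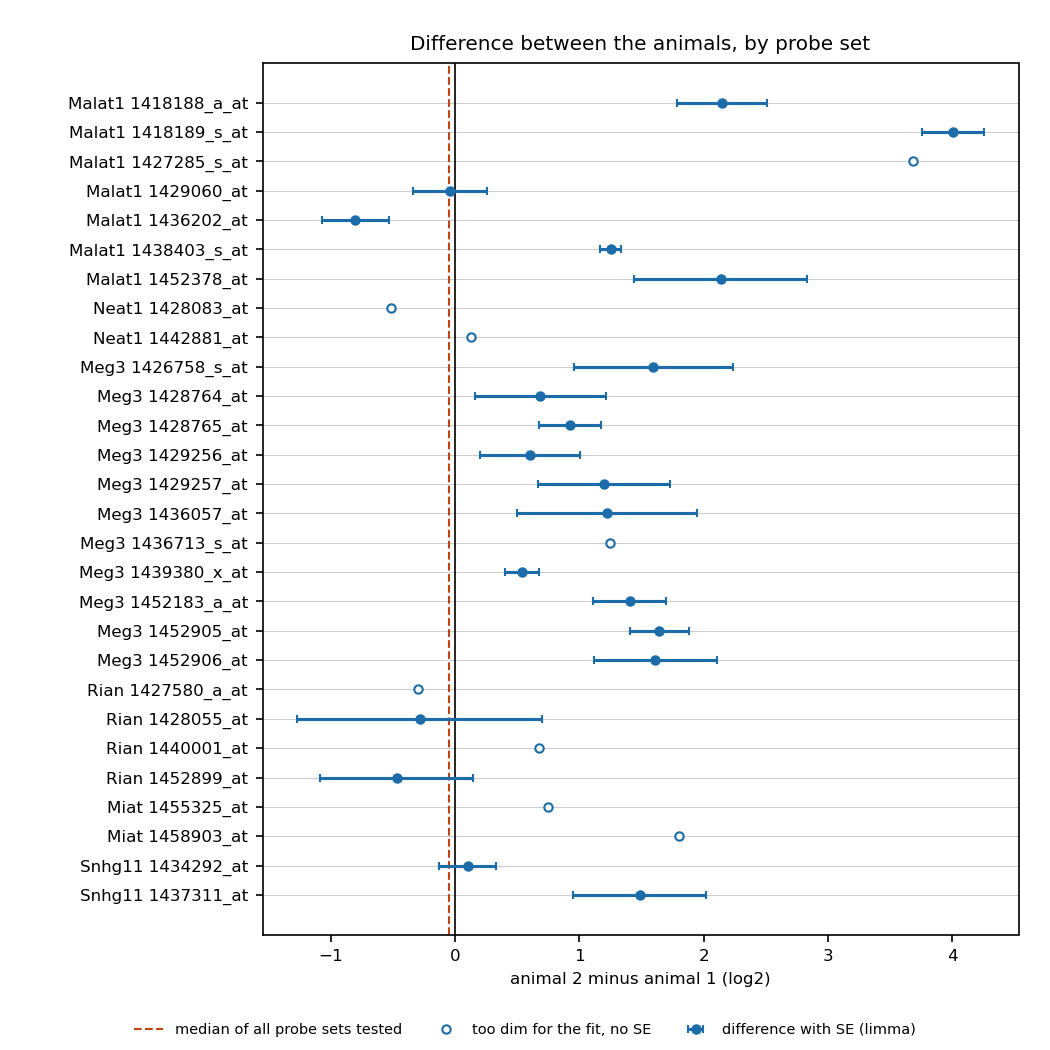
Difference in normalized log2 signal, animal 2 minus animal 1 (horizontal axis), for each of the 28 probe sets (rows). Filled points carry the SE from limma, open points were too dim for the fit, the solid line is 0 and the dashed line is the median of all probe sets tested (-0.05). Malat1 runs from -0.80 to 4.01, and all Meg3 points lie right of 0.

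Over all 28 probe sets, the mean was higher in animal 2 on 22 and lower on 6, with a median difference of 1.06, while the median over the 45037 probe sets of the array was 0.01. Both samples of animal 2 lay above both of animal 1 on 17 of 28, against 20.1% of all probe sets. With equal hybridization controls this held for 12 of 28, 6 of them Meg3, against 9.84% of all. Of the 28, 20 were bright enough for the fit across all probe sets (past the bound in 2 samples or more), with a median of 1.21 beside -0.05 over the 10443 tested. The fit called 2 of these, 1418189_s_at and 1438403_s_at of Malat1, at an adjusted p under 0.05 in limma, against 0.402% of the probe sets tested, and the second of these calls was lost without sample 1-1 or 1-2. Over the alternatives the number of these probe sets called ran from 0 without the mean-variance trend to 7 on values as deposited and 9 without sample 2-2, of which 4 and 5 were of Meg3, and Meg3 on 1452905_at was called under 7 alternatives. Since Malat1 was selected on this contrast, and a probe set bright only in animal 2 had to differ to be tested, nothing is read from these counts. Among 53 genes with at least 5 probe sets tested, all differences were positive in 7 genes, Meg3 among them, all negative in 7 and mixed in 39, Malat1 among them. The same limit holds for these signs. Of the probe sets counted, 1436057_at and 1452906_at of Meg3 and 1452378_at of Malat1 passed the bound only in animal 2. Several Meg3 probe sets share a source sequence as well, so nothing is read from this count either.

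**Figure D3:**
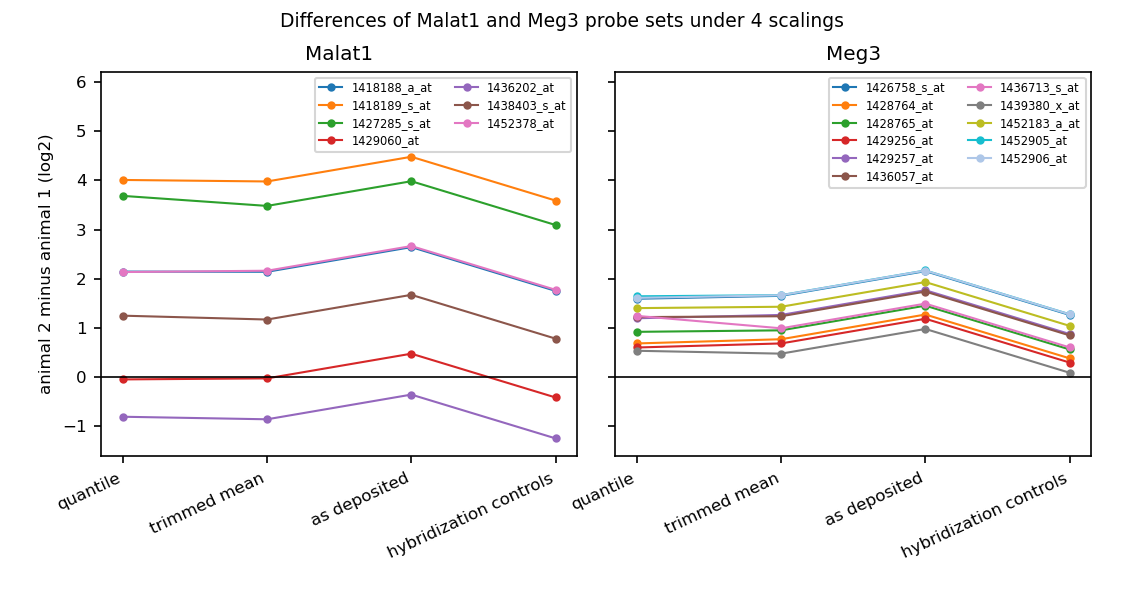
Difference between the animals (vertical axis, log2, animal 2 minus animal 1) for each probe set of Malat1 (left) and Meg3 (right) under 4 scalings of the arrays, with 1 line per probe set. The Malat1 differences span -0.80 to 4.01 with quantile normalization, -0.35 to 4.48 as deposited and -1.24 to 3.59 with equal hybridization controls, and all Meg3 differences are above 0 under each scaling.

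Several measures of the samples moved with these values. Hybridization controls, added just before hybridization, gave more signal in animal 2, with a median ratio of 1.92 across their 18 probe sets. The signal at the 3′ end of Gapdh over that at its 5′ end was 11.4 and 9.09 in animal 1 and 6.26 and 8.45 in animal 2, and for Actb it was 35.3, 28.1, 9.86 and 24.6. Both ratios, which rise when cDNA is short, were lower in both samples of animal 2. The spiked-in bacterial transcripts dap (42.9, 37.6, 21.7 and 31.8) and thr (40.6, 31.2, 11.6 and 14.03) showed the same order, while phe (13.0, 10.95, 14.6 and 9.86) overlapped between the animals. For lys no ratio is read, since its 5′ signal was low, at 33.0, 42.5, 15.1 and 40.6. The 5′ signal of Actb was low as well in 3 samples, at 53.7, 61.5 and 59.3, and 169 in sample 2-1. Where along Malat1 and Meg3 each probe set lies was not analysed here, and the part of these measures in the differences was not tested.

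**Figure D4:**
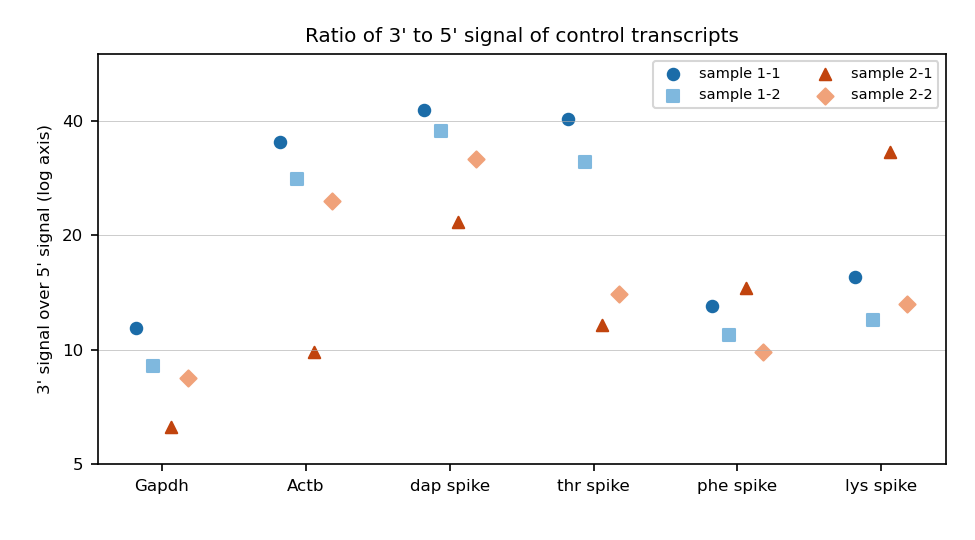
Deposited signal at the 3′ end divided by that at the 5′ end (vertical log axis) for 2 mouse transcripts and 4 spiked-in transcripts, with 1 point per sample. For Gapdh, Actb, dap and thr both samples of animal 2 lie below both of animal 1, and for phe the animals overlap. The lys points rest on a low 5′ signal.

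Markers of other cells moved as well. The summed normalized signal of the brightest probe set of 9 granule cell markers, on the log2 scale, was 12.01 and 12.31 in animal 1 and 10.83 and 10.97 in animal 2. Of these 9 genes 4 passed the bound in all 4 samples, and Zic2, Pax6 and Slc17a7 in none. For 9 markers of Bergmann glia and astrocytes the sums were 13.69, 13.69, 13.42 and 13.25, with 8 genes past the bound in every sample. For 6 oligodendrocyte markers they were 12.20, 12.12, 11.90 and 11.56, with 2 genes past it in every sample and Mog, Mag and Sox10 in none. The oligodendrocyte sum followed Cnp (-0.69), while Mbp differed by 0.13 and 5 of the 7 probe sets tested for these markers were positive. Sums of interneuron (8.62, 8.70, 8.48 and 8.48), microglia (7.99, 7.76, 7.22 and 7.21) and vessel markers (9.47, 9.45, 8.85 and 8.80) were lower in animal 2 too, with 2 of 5, 1 of 7 and 2 of 6 genes past the bound in every sample. These sums rest on few genes: Csf1r differed by -1.46, while the other 6 microglia markers, all below the bound, were positive. Lgi2 (-0.81) and Prkcd (0.67) differed in opposite directions among interneuron markers, as did Slc2a1 (-0.66) and Rgs5 (0.20) among vessel markers. The Purkinje markers summed to 16.02, 16.03, 16.16 and 16.17, a sum led by the brightest probe sets, such as that of Calb1 (13.68 in all 4 samples). Quantile normalization gives probe sets of the same rank the same value on every array. The equal Calb1 values therefore show an equal rank and are not read as an equal level, and the sum is held in part by the normalization. Of 19 Purkinje marker probe sets tested, limma called 3, of which 2 were higher and 1 lower in animal 2. The share called over all tested was 0.402%, and of the 19, 13 were positive and 5 negative. On the brightest probe sets, Icmt (1.30), Pcp2 (0.57) and Rgs8 (0.56) were among those with a higher mean in animal 2. Gng13 (-0.21), Slc1a6 (-0.05) and Foxp2 (-0.03) had a lower one. Malat1 and Meg3 are used by many cell types, and the part of these shifts in their values was not tested.

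Among other long noncoding RNAs no probe set was called, beside 0.402% of all probe sets tested, so nothing is read from this count. A list of 86 such genes matched 53 on the array, and 14 of these passed the bound in all 4 samples on their brightest probe set. Of 29 probe sets tested, limma called 0 in either direction, 5 had an unadjusted p under 0.05, and the median difference was -0.11, with 10 positive and 19 negative. Over all 10443 probe sets tested, 1889 had such a p and 4858 were positive. Norad, a cytoplasmic RNA that binds Pumilio proteins, stood at 11.15, 11.24, 11.54 and 11.63 on 1428286_at, a difference of 0.39 ± 0.10 (SE, adjusted p = 0.137 in limma). Its other probe sets, below the bound on every array, gave -3.80 and -1.40. Oip5os1, the RNA known as Cyrano, stood at 10.27, 10.31, 9.78 and 9.77 on 1428411_at (-0.51 ± 0.15, adjusted p = 0.175 in limma), and its dimmer probe sets at 0.67 ± 0.61 and 0.75 ± 0.65. Snhg6, a small nucleolar RNA host, was at 9.89, 9.76, 9.63 and 9.96 on 1436506_a_at. The widest differences, C130071C03Rik at -1.30 ± 0.52 and Pvt1 at 1.20 ± 0.86, were not called. The Pvt1 value rested on sample 1-1, at 4.11 on 1452324_at, against 6.57, 6.65 and 6.42 in the other samples. Its probe sets below the bound on every array gave -3.77, -1.08, -1.70 and 0.02.

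In the imprinted domain itself, the other noncoding member Mirg, a microRNA host, was below the bound on both probe sets, at 4.16, 2.79, 5.47 and 4.48 on 1440097_at and 2.86, 0.95, 5.07 and 3.80 on 1457030_at. Dlk1, which is transcribed from the paternal chromosome, was below it on both of its probe sets as well, with differences of 0.08 and 0.04. Of 9 other genes listed for the domain and its neighbours 5 were matched. The sole gene with probe sets bright enough for the fit was Wars, a tryptophan tRNA synthetase gene. It stood at 6.64, 6.55, 7.32 and 8.23 on 1434813_x_at (1.18 ± 0.42, adjusted p = 0.219 in limma) and gave 1.39 ± 0.49 on 1437832_x_at, also not called. Its probe sets too dim for the fit gave 1.74 on 1415694_at and -1.69 on 1425106_a_at. Of the listed genes of the region, Meg3 alone passed the bound in all 4 samples on more than 1 probe set. It also has the most probe sets, 11, against 4 for Rian and 10 for the 5 other matched genes together, so nothing is read from this.

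Transcripts for proteins of the nuclear bodies in which Malat1 and Neat1 lie were mostly above background. Of 38 matched speckle genes 33 passed the bound in all 4 samples, and of 34 matched paraspeckle genes 23 did. Each gene was counted by its brightest probe set. No share of all genes by this measure is given, so nothing is read from these counts. Of 134 probe sets of both lists tested, limma called 1, beside 0.402% of all tested. An unadjusted p under 0.05 in limma was found for 21, and the median difference was -0.17, with 49 positive and 85 negative. Over all 10443 tested, the same 1889 had such a p and 4858 were positive. The call was the splicing factor gene Srsf3 on 1434512_x_at, at 10.08, 9.66, 7.22 and 7.55, a difference of -2.48 ± 0.28 (SE, adjusted p = 0.0368 in limma). The call was lost without sample 1-1 or 1-2 (adjusted p = 0.406 and 0.327 in limma), with the bound at the 90th percentile (0.0568), with no filter (0.109) and without the trend (0.208), and the adjusted p ran from 0.0123 to 0.406 over the alternatives. The other Srsf3 probe sets tested gave -1.48 ± 0.24, -0.96 ± 0.29, -0.74 ± 0.45 and -0.17 ± 0.51 and were not called, and 1438215_at, below the bound, gave 0.39. Among the brightest speckle probe sets, those of Rnps1, a splicing activator gene, gave -0.19 ± 0.12 on 1437027_x_at and 0.13 ± 0.15 on 1437851_x_at. The widest speckle difference not called, Srsf11 on 1427269_at at 8.74, 9.04, 8.85 and 4.93, rested on sample 2-2, and 1452371_at of the same gene gave 0.36 ± 0.31.

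Hnrnpk, the gene of an RNA-binding protein needed for paraspeckles, stood at 12.65, 12.53, 12.64 and 12.63 on 1460547_a_at. Its probe sets disagreed: 1448176_a_at stood at 9.30, 9.18, 8.39 and 8.52, a difference of -0.78 ± 0.23 with both samples of animal 2 lower. The others gave 0.20 ± 0.13 on 1423684_at and -0.07 ± 0.31 on 1454692_x_at, and none was called. The nuclear matrix gene Matr3 stood at 12.18, 12.17, 12.22 and 12.31 on 1438368_a_at. Matr3 gave a difference of -0.02 ± 0.15 on 1434888_a_at. The widest paraspeckle differences, Nudt21 on 1455966_s_at (-3.14 ± 1.30) and Rbm14 on 1436979_x_at (-1.69 ± 0.38), were not called (adjusted p = 0.272 and 0.117 in limma). The Nudt21 value rested on sample 2-1, at 1.81, against 7.07 and 6.51 in animal 1, and its other probe sets tested gave 0.21 ± 0.39 and 0.26 ± 0.49. Among 21 matched genes for RNA partners, processing factors and neighbours of Malat1 and Miat, 0 of 21 probe sets tested were called. The share called over all tested was 0.402%. Of these 21 probe sets, 6 had an unadjusted p under 0.05 in limma (1889 of 10443 over all tested). Their median difference was -0.36, with 4 positive and 17 negative. The splicing factor gene Sf1, whose protein binds Miat, stood at 11.63, 11.63, 11.12 and 11.21 on 1459765_s_at (-0.46 ± 0.09, adjusted p = 0.0935 in limma). Its other probe sets tested gave 0.06 ± 0.24 on 1459766_x_at and -0.94 ± 0.50 on 1423750_a_at. Qk, the gene of the RNA-binding protein quaking, stood at 10.77, 10.20, 9.47 and 9.35 on 1417073_a_at (-1.07 ± 0.22), and gave -2.10 ± 0.58 on 1451179_a_at. Ptbp2, the gene of a neuronal splicing repressor, gave -1.09 ± 0.28 on 1423471_at and -0.13 ± 0.35 on 1423470_at. Mettl14, a gene of the RNA methylation complex, gave 1.77 ± 0.75 on 1454751_at, and limma called none of these partner probe sets.

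The genes with patterns most like those of the noncoding RNAs were found by the root mean square difference over the 4 samples, after centring each probe set on its own mean. Candidates were probe sets that passed the bound in 2 samples or more. Nearest to Malat1 on 1418189_s_at were Nhsl2 (0.28), Ankrd6 (0.32) and Rgs7bp (0.40), and nearest to it on 1438403_s_at were Dzip3 (0.03), Icmt (0.05) and Glyr1 (0.05). For 1418188_a_at they were Bbs4 (0.10), Tnik (0.10) and Prkag2 (0.14). For 1436202_at, the Malat1 probe set that was lower in animal 2, they were Rtn4rl1 (0.02), Atp7a (0.05) and the splicing factor gene Srsf1 (0.06). The measure keeps the size of a difference, so probe sets with unlike differences have unlike neighbours. Bbs4, Tnik, Nhsl2 and Ankrd6 passed the bound only in animal 2. Rian on 1452899_at was nearest to Gpc6 (0.01), and the dim Neat1 and Miat probe sets were nearest to 1600012H06Rik (0.09) and Rbm5 (0.04). The distances rest on 4 samples and say nothing of shared function.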

How the data were processed

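Expression was measured on 1-colour Affymetrix arrays in 4 samples from 2 animals. The deposited intensity signals, 1 per probe set and array on a linear scale, were made by the authors with GCOS, per the submitters' processing notes. RNA, about a nanogram per sample, was amplified in a pair of cycles, per the labels' protocols. GCOS's version, signal algorithm and scaling are not stated in the sources used here. Genes were named from the platform annotation: 34945 probe sets had 1 symbol, 932 had several and 9160 had none, and 64 were controls.

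Signals under 0.1 were set to 0.1, log2 was taken, controls were left out and arrays were quantile-normalized in limma 3.58.1 (R 4.3.3). The contrast of animal 2 minus animal 1 was fitted by lmFit, then eBayes (trend on), for the 10443 probe sets that passed the bound in 2 samples or more, and p-values were Benjamini-Hochberg adjusted. The fit was tested on simulated data. The members and lists were chosen with earlier results of these data known. All member probe sets are named, and of other lists those called, the 3 brightest and the 2 widest differences. Further probe sets of Oip5os1, Srsf3, Srsf11, Nudt21, Hnrnpk, Sf1, Ptbp2, Wars, Mirg, Dlk1 and Luc7l3, and single marker genes, were named after their values were seen. Equal hybridization controls were added as an alternative after seeing the data.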

Additional observations from a re-analysis of the deposited data

Results flagged for a closer look

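In 1 of the 28 probe sets a single sample stood far from the others: Meg3 on 1428764_at, where sample 2-1 (7.60) was separated from the next sample by 0.897 of the range of the 4 samples, which otherwise lay between 6.21 and 6.35. About 1 in 20 groups is picked out in this way by chance. The cause was not tested.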

How the results depend on the processing

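The count of probe sets called between the animals moved strongly with the settings, from 42 (25 higher and 17 lower in animal 2) to 634 on values as deposited (625 and 9), 423 with equal hybridization controls (28 and 395), 181 where only probe sets past the bound in all 4 samples were tested, 146 and 7 with the bound at the 99th and 90th percentile, 5 with no filter on dim probe sets and 0 without the mean-variance trend. It was 34 with equal trimmed means (20 and 14) and 55 with an offset of 16. Leaving out 1 sample gave 1 (without 1-1 or 1-2), 700 (without 2-1) and 929 (without 2-2), where the lone sample of an animal is assumed to vary like the pair of the other. The median over all probe sets tested was 0.48 on values as deposited and -0.41 with equal hybridization controls.

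The other noncoding RNAs had 2 calls on values as deposited and 0 to 1 with a sample left out. The speckle and paraspeckle lists had 4 calls on values as deposited, 9 with equal hybridization controls, 5 among those past the bound in all 4 samples, 0 with no filter or no trend, and 0 to 18 with a sample left out. The cause of these shifts was not tested. Malat1 on 1418189_s_at was called under each alternative but the fit without trend, and 1438403_s_at was lost without sample 1-1 or 1-2 as well. Since Malat1 was selected on this contrast, nothing is read from how often these probe sets were called. The count of member probe sets above background ran from 10 to 19, and their median difference from 0.67 (without sample 2-1) to 1.71 (as deposited). Of the differences of single member probe sets, 182 stayed within the spread of their samples, 42 moved beyond it and 0 called ones changed sign. No paired analysis was possible because the samples form 1 group and sample numbers do not pair the animals.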

Other observations

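Luc7l3, a gene of a splicing factor found in speckles, also had probe sets that differed in opposite directions, and was named after its values were seen. Opposite signs were common: among 53 genes with at least 5 probe sets tested, 39 had both. On 1424802_a_at the samples stood at 11.72 and 11.73 in animal 1 and 11.20 and 11.11 in animal 2, a difference of -0.57 ± 0.09 (SE). On 1451485_at they stood at 8.86 and 8.94 in animal 1 and 10.35 and 9.82 in animal 2, a difference of 1.18 ± 0.24. The animals were apart on each of these probe sets, in opposite directions, and neither probe set was called (adjusted p = 0.0680 and 0.0924 in limma). On 1437570_at, below the bound on every array, the animals overlapped, with a difference of -0.63.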
